A study of Mus musculus with 10 samples.

Results

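The transcripts described here encode the enzymes by which tissues outside the liver burn ketone bodies and the transporters that carry these fuels across the plasma membrane. They are Oxct1, Bdh1, Acat1, Slc16a1, Slc16a6, Slc16a7 and Bsg, 7 of the 46983 genes counted in cardiac ECs of mice on a control or a ketogenic diet. The genes were chosen by name, with the difference between the diets in these mice already known, so that difference is given for them as a description and nothing is read from its test. The group holds no enzyme that is specific to ketone body synthesis, and it is called here ketone body oxidation enzymes and monocarboxylate transporters.

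Ketone bodies are made in the liver and are burned in the mitochondria of heart, skeletal muscle and brain. They enter cells through proton-coupled monocarboxylate transporters, which also carry lactate and pyruvate and of which several need the membrane glycoprotein basigin to reach the cell surface. Inside the mitochondrion, BDH1 oxidizes β-hydroxybutyrate to acetoacetate, SCOT, the product of Oxct1, moves CoA from succinyl-CoA onto acetoacetate, and the thiolase ACAT1 splits the acetoacetyl-CoA into acetyl-CoA for the TCA cycle.

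The study asked how a diet that raises ketone bodies in blood alters gene expression in cardiac ECs. Male wild-type C57Bl/6J mice, 8 weeks old at the start, received for 14 days either a control diet with 11.6% of its energy as fat (5 mice) or a ketogenic diet with 89.5% (5 mice). The hearts were digested, and cells were captured with magnetic beads that carried antibodies against CD31, an adhesion molecule of endothelial cells that platelets and some leukocytes also bear. Each mouse gave 1 library, made from amplified full-length cDNA with a kit that does not record the strand and sequenced as single reads of 50 bases. No allele was altered in either group, and the only difference the labels give between the groups is the diet.

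Reads on genes numbered from 10885154 to 12206734 per control diet library and from 11108020 to 12710861 per ketogenic diet library. The 8 endothelial markers summed to between 523 and 561 RPKM on the control diet and between 508 and 571 RPKM on the ketogenic diet (RPKM, reads scaled by gene length and library total). The 9 cardiomyocyte markers were also present, and their summed level was 182 to 225 RPKM on the control diet and 207 to 282 RPKM on the ketogenic diet. All 9 of these markers were higher on the ketogenic diet and 0 of 9 passed the test. The 6 mural markers summed to 472 to 498 RPKM on the control diet and 453 to 502 RPKM on the ketogenic diet. No RPKM in the whole table exceeded 190, and the strong markers Cdh5 and Rgs5 ran from 149 to 170 and from 130 to 149. Whether counts this high still follow the level of the RNA was not tested, so the sums do not measure cell content. For the 6 fibroblast markers the sums were 220 to 252 RPKM and 214 to 260 RPKM. By sign 5 of these 6 were higher on the ketogenic diet. Their mean z-score of log2 CPM did not overlap, at −0.32 to −0.11 on the control diet and −0.08 to 0.59 on the ketogenic diet. The 3 platelet markers summed to 167 to 241 RPKM on the control diet and 85.4 to 194 RPKM on the ketogenic diet, the 5 macrophage markers to 86.7 to 217 RPKM and 63.6 to 120 RPKM, and the 4 lymphocyte markers to 41.7 to 57.3 RPKM and 36.9 to 41.7 RPKM. By sign, 0 of the 3 platelet, 0 of the 5 macrophage and 2 of the 4 lymphocyte markers were higher on the ketogenic diet. For the endothelial and mural markers the numbers were 2 of 8 and 1 of 6. The B cell marker Cd79a was the only marker of these types to pass the test, with a log2 fold change of −0.46 (adjusted p = 0.0221 from edgeR), and 0 markers were at 0. Among the other lymphocyte markers, the log2 fold change was −0.53 for Ms4a1, 0.11 for Cd3e and 0.08 for Nkg7. In RNA from a mixture of cells, fewer cells of a type and less RNA per cell cannot be told apart, and the part of other cell types in the results was not tested.

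Transcript levels of the 7 genes spanned a wide range, with enzymes at both ends and the 3 transporters between them. Acat1 had a mean level of 47.3 RPKM and Bsg, which encodes basigin, of 46.5 RPKM, and their levels lay above 93.3% and 93.1% of the tested genes. Oxct1 was next, at 18.8 RPKM and 17.2 RPKM as means of the control and the ketogenic diet, and its level lay above 78.1% of them. The transporters were far lower, with mean levels of 3.07 RPKM for Slc16a1 (MCT1), 2.09 RPKM for Slc16a6 (MCT7) and 0.981 RPKM for Slc16a7 (MCT2). Bdh1 was the lowest, with a mean level of 0.148 RPKM, above only 1.39% of the tested genes. The transcript of the first enzyme of β-hydroxybutyrate oxidation was thus counted with few reads. Those of the next steps, Oxct1 and Acat1, lay above 78.1% and 93.3% of the tested genes. By immunoblot, the paper found BDH1 protein in CD31+ ECs of the heart. Protein was not measured in these libraries, and a low RNA level does not give the level of the enzyme.

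Neighbours in this order were compared within each mouse by a two-sided exact paired permutation test on log2(RPKM + 0.1), adjusted over 6 pairs. Acat1 and Bsg were not told apart, with a mean log2 difference in level of 0.03 (SD 0.083, n = 10 mice, exact p = 0.344), and Acat1 was higher in 6 of 10 mice. Every other gene exceeded its lower neighbour in 10 of 10 mice (exact p = 0.00195, the smallest 10 mice allow, adjusted p = 0.00234). The order was taken from these same mice, so the direction of each comparison was set by the data. The p-values give only how far the mice agreed at the deposited gene lengths. Bsg exceeded Oxct1 by a ratio of 2.58, and Oxct1 exceeded Slc16a1, the most abundant of the transporters, by a ratio of 5.79. Among the transporters the steps were smaller, with ratios of 1.44 for Slc16a1 over Slc16a6 and 2.07 for Slc16a6 over Slc16a7. Slc16a7 exceeded Bdh1 by a ratio of 4.47, but the size of this step depends on the added 0.1, which is near the level of Bdh1 itself. The log2 difference was 2.16 with 0.1 added and 0.77 with 1 added.

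**Figure D1:**
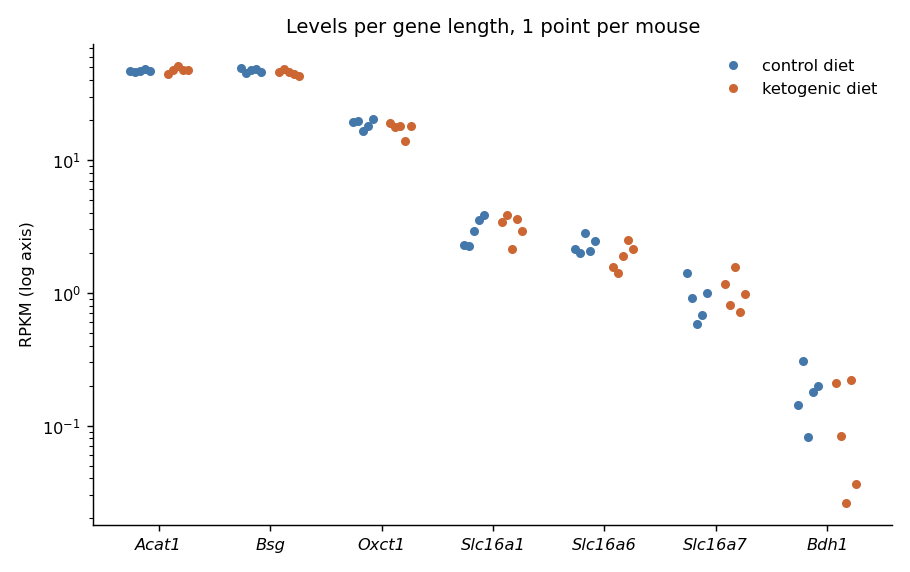
Level of each gene in RPKM (vertical log axis) in each of 5 control diet mice (blue) and 5 ketogenic diet mice (orange), 1 point per mouse, with genes ordered by their mean. Acat1 and Bsg lie together near 47.3 and 46.5 RPKM, the transporters lie between 3.07 and 0.981 RPKM on average, and Bdh1 lies at the bottom with the widest spread.

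The order at the top and among the transporters depended on the gene length. The deposited RPKM of Bsg rests on a length of 4264 bases, which adds up all its annotated exons, whereas its principal transcript in the annotation has 1526 bases. With the median length of each gene's principal transcripts, a choice made after the data had been seen, Bsg was the highest at a recomputed RPKM of 130 ± 5.69 (SD, n = 10), Acat1 ran from 55.8 to 64.1 and Oxct1 from 21.4 to 31.6. Bsg then exceeded Acat1 by a ratio of 2.19 in 10 of 10 mice (exact permutation p = 0.00195). Slc16a6 at 3.08 ± 0.62 and Slc16a1 at 3.07 ± 0.666 could no longer be told apart (log2 difference 0.01, SD 0.445, n = 10, exact permutation p = 0.967). Bdh1 remained the lowest at 0.561 ± 0.34, and Slc16a7 was next at 1.85 ± 0.599. Which transcripts these cells used was not measured.

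Of the 15949 genes tested between the diets with edgeR's quasi-likelihood test, 213 had an adjusted p under 0.05, which is 1.34%, with 0.809% higher and 0.527% lower on the ketogenic diet. Without adjustment 17.8% of the tested genes had a p under 0.05, and in 4.34% the normalized counts of the diets did not overlap. Among the 7 genes, 0 were called by edgeR, 0 had an unadjusted p under 0.05 and 0 did not overlap, and DESeq2 called 0 of the 6 for which it gave an adjusted p. Since the genes were chosen with this contrast already known, nothing is read from these counts. Their log2 fold changes ran from −0.67 for Bdh1 to 0.18 for Slc16a7, with a median of −0.07 beside −0.00571 over all tested genes. A p above the threshold does not show that a level was the same on both diets, and the standard errors give the size of difference that these mice could resolve.

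Oxct1 (ENSMUSG00000022186.14) lies on the plus strand of chromosome 15 from 4026383 to 4155344 in GRCm38. Its normalized counts, which are reads scaled by edgeR's TMM factors, were 1253, 1253, 1048, 1159 and 1303 in control diet mice 1 to 5. On the ketogenic diet they were 1205, 1118, 1139, 875 and 1149. The lowest control mouse lay below 4 of the 5 ketogenic mice, and ketogenic mouse 4 lay below all others. The mean was 1203 ± 101 on the control diet and 1097 ± 128 on the ketogenic diet (SD, n = 5), and the log2 fold change was −0.13 (standard error 0.0855). When the cardiomyocyte marker score of the mouse entered the fit, the log2 fold change was 0.01 (standard error 0.112). That score had a mean of −0.62 on the control diet and 0.62 on the ketogenic diet, so it varied together with the diet. In the fit on diet alone without ketogenic mouse 4, the log2 fold change was −0.06. Exons of Oxct1 overlap BC037032 on the other strand, which had 6 to 18 reads per mouse.

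Bdh1 (ENSMUSG00000046598.14, plus strand of chromosome 16 from 31422280 to 31458901) was read so rarely that its raw counts carry the information. They were 10, 24, 6, 13 and 15 on the control diet and 16, 6, 2, 17 and 3 on the ketogenic diet. Of the ketogenic mice, 2 lay below every control mouse and 3 within the control range. The normalized counts were 13.7 ± 6.14 and 8.66 ± 7.04 (SD, n = 5), and the log2 fold change was −0.67 with a standard error of 0.538. The spread within the ketogenic diet was 81.3% of the mean, the largest of the 7 genes. The log2 fold change lay between −1.04 and −0.40 when 1 mouse was left out. When the cardiomyocyte score entered the fit it was 0.35, with the opposite sign and a standard error of 0.683. Within a diet the SD of the normalized count was 6.6, against 3.35 from counting error alone, and the difference between the diets was smaller than the spread between mice. The overlapping antisense gene Gm15743 had 0 to 2 reads.

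Acat1 (ENSMUSG00000032047.5) lies on the minus strand of chromosome 9 from 53580522 to 53610382. Its normalized counts were 2330, 2293, 2351, 2446 and 2315 on the control diet and 2211, 2343, 2537, 2334 and 2344 on the ketogenic diet. The mice of both diets interleaved, and ketogenic mice supplied both the highest and the lowest count. Means were 2347 ± 59.1 and 2354 ± 117 (SD, n = 5), and the log2 fold change of 0.00432 had the smallest standard error of the 7 genes, at 0.0385. It was −0.08 (standard error 0.0463) with the cardiomyocyte score as a covariate.

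**Figure D2:**
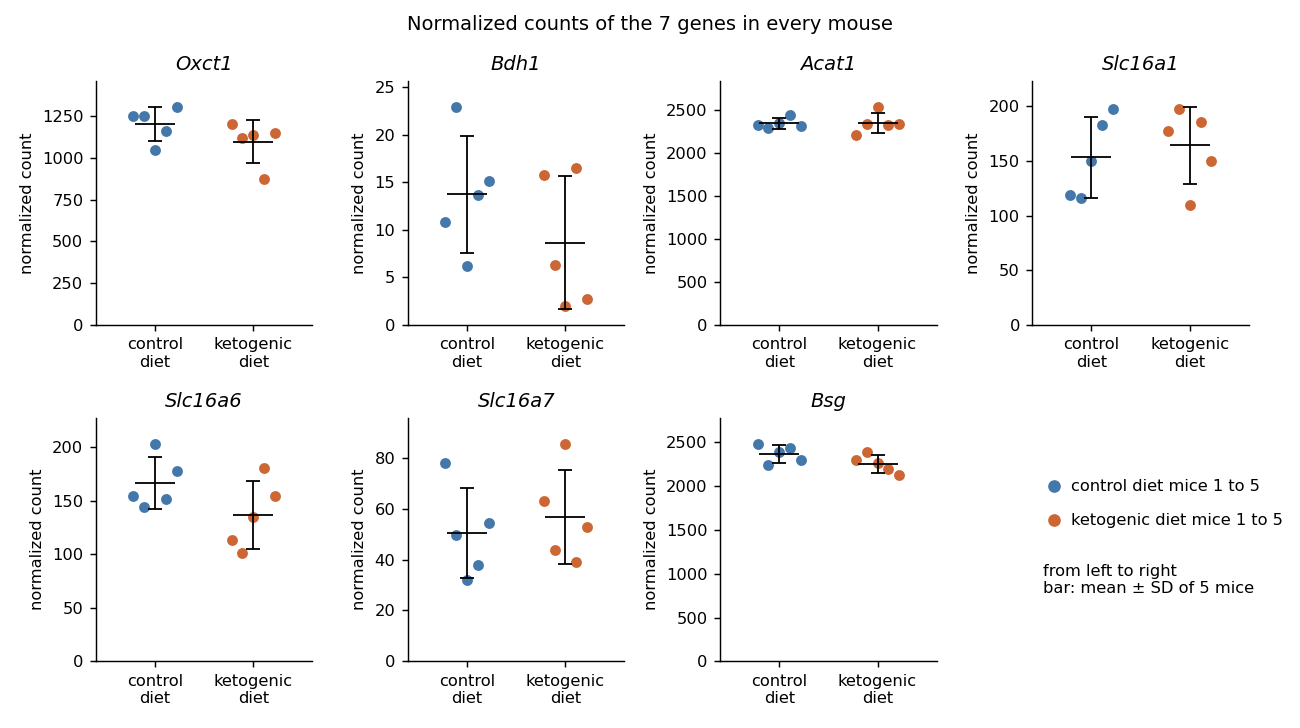
Normalized counts (vertical axes from 0, each on its own scale) of the 7 genes in control diet mice (blue) and ketogenic diet mice (orange), 1 point per mouse in the order 1 to 5, with bars for mean ± SD of 5 mice. The diets overlap in all 7 panels, and ketogenic mouse 4 stands below the other mice for Oxct1 at 875.

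Slc16a1 encodes MCT1, a transporter of lactate, pyruvate and ketone bodies found in many tissues. The gene (ENSMUSG00000032902.1) lies on the plus strand of chromosome 3 from 104638668 to 104658462. Normalized counts were 119, 116, 150, 183 and 198 on the control diet and 177, 198, 110, 186 and 150 on the ketogenic diet. The values covered nearly the same range on both diets, with means of 153 ± 37 and 164 ± 34.9 (SD, n = 5). The log2 fold change was 0.10 (standard error 0.189) and stayed between 0.02 and 0.22 when 1 mouse was left out. The sense-intronic gene Gm43581 inside it had 56 to 161 reads, and its exons do not overlap those of Slc16a1.

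Slc16a6 encodes MCT7, a transporter linked to the export of β-hydroxybutyrate from liver cells. The gene (ENSMUSG00000041920.14) lies on the minus strand of chromosome 11 from 109450855 to 109473598. Normalized counts were 154, 144, 203, 152 and 178 on the control diet. On the ketogenic diet they were 113, 101, 135, 180 and 154. Of the ketogenic mice, 3 lay below every control mouse and the other two within the control range. The means were 166 ± 24.1 and 137 ± 31.4 (SD, n = 5), a log2 fold change of −0.28 (standard error 0.16), which became −0.52 with the cardiomyocyte score as a covariate. Exons of Slc16a6 overlap those of Amz2 and Arsg on the other strand, which had 738 to 1081 and 21 to 116 reads, so its count is uncertain where the exons meet.

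Slc16a7 encodes MCT2, a transporter with a high affinity for pyruvate and ketone bodies. The gene (ENSMUSG00000020102.14) lies on the minus strand of chromosome 10 from 125219270 to 125389465. Normalized counts were 77.8, 49.6, 32.1, 37.9 and 54.3 on the control diet and 63.1, 43.9, 85.4, 38.9 and 52.8 on the ketogenic diet. The mice of both diets were mixed, with the highest count in ketogenic mouse 3 and the lowest in control mouse 3. The means were 50.3 ± 17.7 and 56.8 ± 18.5 (SD, n = 5), and the log2 fold change was 0.18 (standard error 0.27). Without ketogenic mouse 3 it was −0.01 and without control mouse 1 it was 0.38, so single mice set its size. Exons of Gm47862 overlap it on the other strand.

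Bsg encodes basigin, the partner that carries MCT1 to the membrane. The gene (ENSMUSG00000023175.15) lies on the plus strand of chromosome 10 from 79704491 to 79711969. Normalized counts were 2481, 2235, 2388, 2432 and 2297 on the control diet and 2297, 2390, 2268, 2190 and 2125 on the ketogenic diet. The 2 lowest values were those of ketogenic mice and the 2 highest those of control mice, and the other 6 were mixed. The means were 2367 ± 99.9 and 2254 ± 102 (SD, n = 5), and the log2 fold change was −0.07 (standard error 0.0413).

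The raw counts of Bsg behaved differently from those of the other genes. They were 2297, 2344, 2307, 2310 and 2284 on the control diet and 2328, 2286, 2310, 2253 and 2332 on the ketogenic diet, with means of 2308 ± 22.3 and 2302 ± 32.8 (SD, n = 5). Over the 10 mice the raw count varied by 1.16% (SD over mean), whereas the library totals varied by 4.77%, so the count did not follow the depth. Its variance was 0.309 times its mean, where counting error alone would give a ratio near 1, and only 24 of 828 genes with a mean count of 2000 to 3000 had a ratio as low (median 12.9). Acat1, with a similar mean count of 2350, had a ratio of 8.51, and Oxct1 had a ratio of 15.1. The library totals were on average 1.04 times as high on the ketogenic diet, and scaling a flat count by them lowers its normalized value there.

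Per base of its principal transcript, Bsg was also the most densely read of the 7 genes. Over the 1526 bases of its principal transcript, Bsg had 1.51 reads per base. That read number equals 75.5% of the number of start positions that both read directions allow. For Acat1 this ratio was 34.5%, for Oxct1 16.3%, and for the transporters and Bdh1 at most 1.8%. The start positions of the reads were not observed, and reads on all exons of a gene entered its ratio. On the longer gene length used for RPKM the densities of Acat1 and Bsg were alike, at 0.551 and 0.541 reads per base. On that length no gene of at least 200 bases in the whole table had more than 2.1 reads per base in any mouse, and no RPKM exceeded 190. Removal of duplicate reads is not stated in the sources used here, and its part in the flat counts of Bsg was not tested. The normalized difference of Bsg between the diets, and its ratio to the other genes, rest on a count that did not scale with depth.

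**Figure D3:**
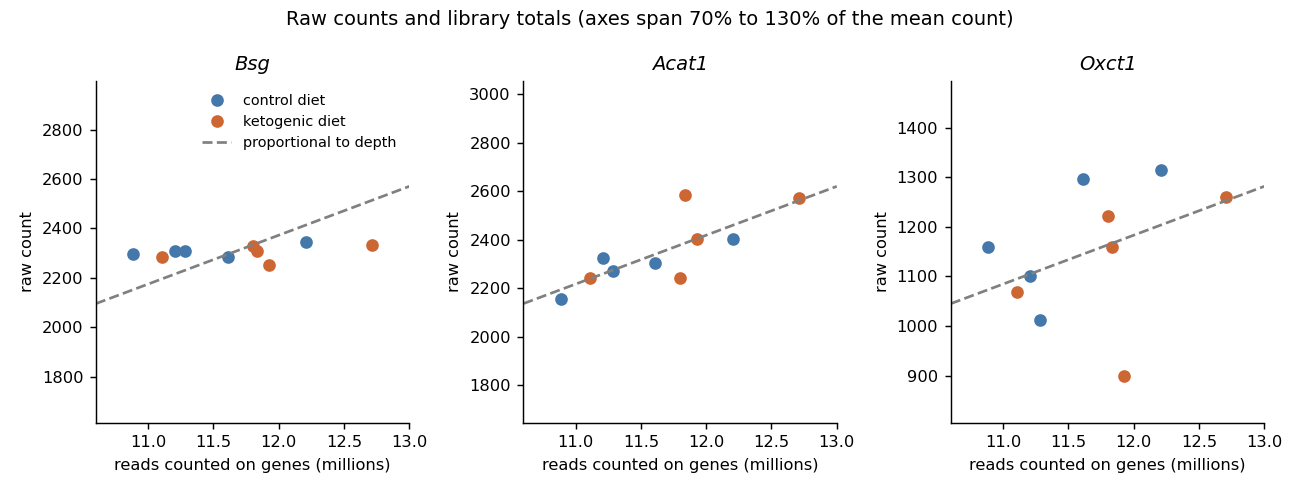
Raw counts (vertical axes, 70% to 130% of each gene's mean and not from 0) against the reads counted on genes in each library (horizontal axis) for Bsg, Acat1 and Oxct1 in control diet (blue) and ketogenic diet mice (orange). The dashed line is a count proportional to depth. Bsg stays between 2253 and 2344 at every depth, while Acat1 lies along the line and Oxct1 scatters around it.

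The members differed widely in how much they varied between mice of the same diet. The biological coefficient of variation that edgeR estimated was 4.66% for Acat1, 4.95% for Bsg and 9.51% for Oxct1. For the transporters it was 17.4% for Slc16a6, 20.7% for Slc16a1 and 28.5% for Slc16a7, and for Bdh1 51.1%. Bdh1, the rarest, varied most. The value for Bsg is not a measure of a stable transcript, since its raw count varied by 1.16% and the library totals by which it is scaled varied by 4.77%.

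The genes were then compared with each other across the 10 mice, after the mean of each diet was subtracted. Among 28 relations, the 21 pairs and each gene with the cardiomyocyte score, 0 had an adjusted p under 0.05 (exact permutation of mice within diets, smallest adjusted p 0.402 for Pearson's r and 0.2 for Spearman's rho). The largest positive r between members was that of Oxct1 with Slc16a7 (r = 0.69, exact permutation p = 0.0369, and rho = 0.76, exact permutation p = 0.0165), and r was 0.45 without the 2 mice farthest from the median of Oxct1. The lowest r was that of Oxct1 with Slc16a6 (r = −0.66, exact permutation p = 0.0603, and rho = −0.30, exact permutation p = 0.472), and r was 0.19 without the 2 farthest mice. Bdh1 and Acat1 had r = −0.65 (exact permutation p = 0.0788) and rho = −0.78 (exact permutation p = 0.0152). For this pair r was −0.56 without the 2 mice farthest from the median of Bdh1. Slc16a1 and Bsg, which encode a transporter and its partner, had r = 0.14 (exact permutation p = 0.699) and rho = 0.26 (exact permutation p = 0.492). With the cardiomyocyte score, Acat1 had r = 0.78 (exact permutation p = 0.0253, adjusted p = 0.402, exact permutation), which was 0.42 without the 2 farthest mice. The other enzymes had the opposite sign with the score, Bdh1 with r = −0.62 (exact permutation p = 0.0838) and Oxct1 with r = −0.51 (exact permutation p = 0.185).

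The genes most like Oxct1 across mice by Pearson's r were Cpxm2, Zfp830 and Sqle, each with r = 0.94 over 10 mice among 10881 genes searched. Spearman's rho was 0.54 for Cpxm2, 0.96 for Zfp830 and 0.81 for Sqle. Those most like Slc16a1 were Herc1 (r = 0.93), Gm20559 (r = 0.92) and Hspbap1 (r = 0.91). They are given as a description of the highest values in a long search.

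The other genes of ketone body and acetoacetate metabolism were 9, of which 5 had enough reads to be tested and 4 did not. Of these 5, edgeR called 1 higher and 0 lower on the ketogenic diet, beside 0.809% and 0.527% of all tested genes. By sign alone 3 were higher and 2 lower. The median log2 fold change was 0.10, beside −0.00571 over all tested genes. The called gene was Hmgcs1, the cytosolic HMG-CoA synthase of cholesterol synthesis. Its normalized counts were 1716, 1710, 1483, 1712 and 1686 on the control diet and 2561, 2074, 2125, 2084 and 2323 on the ketogenic diet. Every ketogenic mouse lay above every control mouse, which held for 2.4% of all tested genes. The log2 fold change was 0.43 with a standard error of 0.0645 (edgeR, adjusted p = 0.00957). It was 0.60 with the cardiomyocyte score as a covariate and remained past the threshold in all 21 alternatives. Aacs, which activates acetoacetate in the cytosol for lipid synthesis, had a level of 14.0 RPKM and a log2 fold change of 0.10 (adjusted p = 0.704 from edgeR). Further tested genes were Hmgcll1, with a log2 fold change of −1.43 (adjusted p = 0.0633 from edgeR) at 6.27 to 39.2 normalized counts, and Acat2, with one of 0.12.

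The other monocarboxylate genes were 22, of which 16 were tested. In edgeR 0 of the 16 were called in either direction and 6 had an unadjusted p under 0.05, beside 17.8% of all tested genes, 5 were higher and 11 lower, and the median log2 fold change was −0.02. With DESeq2, 4 were called, beside 5.11% of all tested genes. These were Hcar1, the lactate receptor, with a log2 fold change of 0.48 (adjusted p = 0.0621 from edgeR), the orphan transporter Slc16a4 with 0.44 (adjusted p = 0.0654 from edgeR), Mpc2, a subunit of the mitochondrial pyruvate carrier, with 0.19 (adjusted p = 0.101 from edgeR) and Ldha. For 2 of the 16, Slc16a4 and Mpc2, every ketogenic mouse lay above every control mouse, which held for 2.4% of all tested genes. Ldha and Ldhb, the muscle and heart subunits of lactate dehydrogenase, had levels of 35.6 and 32.3 RPKM, above all 3 transporters described here. The log2 fold change was −0.18 for Ldha (adjusted p = 0.117 from edgeR) and 0.01 for Ldhb (adjusted p = 0.919 from edgeR). Slc16a13 (MCT13) had a level of 25.0 RPKM, above that of every transporter among the 7 genes, with a log2 fold change of −0.01 (adjusted p = 0.964 from edgeR).

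**Figure D4:**
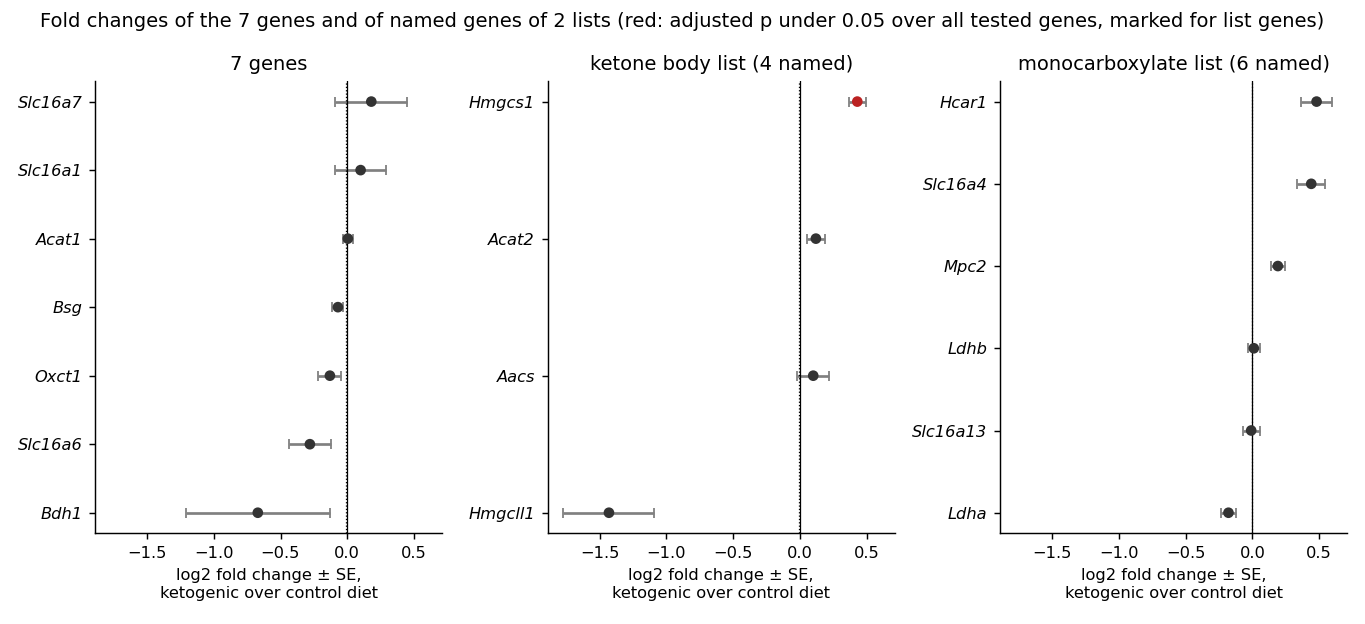
Log2 fold change of the ketogenic over the control diet (horizontal axis) ± standard error for the 7 genes and for the genes of the ketone body and monocarboxylate lists that the text names. Red marks list genes with an adjusted p under 0.05 over all tested genes, the solid line is 0 and the dotted line the median of all tested genes. Hmgcs1 at 0.43 is the only red point, and Bdh1 has the widest error bar of the 7 genes.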

How the data were processed

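RNA of CD31+ cardiac cells from 5 control diet and 5 ketogenic diet mice was analysed, with 1 library per mouse. The authors deposited raw counts per gene and RPKM values, in which each count is divided by gene length and library total. The submitters' processing notes name bcl2fastq 2.17.1.14, STAR 2.3, HTSeq 0.6.0 and the build mm10. Totals of 10885154 to 12710861 reads per mouse leave genes of few reads imprecise. Of 46983 identifiers, 46488 were given a symbol by GENCODE M21, which also gave positions and transcripts tagged as principal.

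The test was edgeR 4.0.16 under R 4.3.3 (TMM, filterByExpr, quasi-likelihood F-test, Benjamini-Hochberg over 15949 genes, threshold 0.05). A cell type score was the mean z-score of log2 CPM (prior count 2). Correlations used every one of the 14400 permutations of mice within diets. The members and lists were chosen with earlier results of these data known. Named genes were the 7 members, list genes with an adjusted p under 0.05, the 3 of each list with the highest mean RPKM, the 3 most like Oxct1 and Slc16a1 with a mean count of at least 100, overlapping genes and markers. Acat2, Hmgcll1, Hcar1, Slc16a4 and Mpc2 were named after their values were seen. Other genes of these pathways, of which some meet the rule, are not reported here.

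Alternatives were DESeq2 1.42.0 and its size factors, upper quartile factors, library size alone, no filter, at least 10 counts in every mouse, limma 3.58.1 on log2(RPKM + 1) or log2(RPKM + 0.1), a replicate block, the cardiomyocyte score as a covariate, another pseudocount, 1 diet alone and each mouse left out. Chosen after seeing the data were counts corrected for used read start positions, and principal transcript lengths. Tests were tried on simulated data.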

Additional observations from a re-analysis of the deposited data

Results flagged for a closer look

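In 14 groups, the 7 genes on each diet, 1 value stood apart from the rest of its group. The normalized count of Oxct1 was 875 in ketogenic mouse 4 and between 1118 and 1205 in the other ketogenic mice. The gap to the nearest mouse was 0.736 of the range of the group, above the limit of 0.71 for 5 samples. Chance flags about 1 in 20 groups, or 0.7 of 14.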

How the results depend on the processing

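The number of genes called in the whole table, 213 in the reported fit, was 815 with the DESeq2 Wald test, 113 with the replicate block and 18 when the cardiomyocyte score entered the fit. It was 109, 86, 98 and 134 without control mice 1 to 4, 134, 108, 95 and 134 without ketogenic mice 1, 3, 4 and 5, and 492 without ketogenic mouse 2. The cause of these shifts was not tested. The ketone body list had 2 called genes, with Hmgcll1 added, under DESeq2 and between 1 and 2 when 1 mouse was left out. The monocarboxylate list had 4 (Hcar1, Slc16a4, Mpc2 and Ldha) under DESeq2, 1 (Hcar1) with the replicate block, and between 0 and 2 when 1 mouse was left out. Mice with the same replicate number on both diets had correlations from −0.134 to 0.094 after the diet means were subtracted. Such low values do not show that these mice were unpaired, and the labels state no pairing. With the covariate the log2 fold change became 0.35 for Bdh1 and −0.08 for Acat1, both with the opposite sign. Bdh1 had no value when every mouse had to have 10 counts. With principal transcript lengths, the log2 difference of Acat1 over Bsg became −1.13 and that of Slc16a1 over Slc16a6 −0.01, as the change of length alone makes it. Single-mouse removal moved log2 fold changes of Slc16a1 from 0.02 to 0.22 and of Slc16a6 from −0.40 to −0.19. With 1 added to RPKM, the log2 fold change of Bdh1 was −0.08 by limma, and the log2 difference of Slc16a7 over Bdh1 was 0.77.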
